A study of Mus musculus with 32 samples.

Results

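Hes and Hey proteins are basic helix-loop-helix transcriptional repressors, and their genes were read here as targets of Notch signalling in mice made by somatic nuclear transfer. The set held 5 genes, Hes5, Hes6, Hes7, Hey1 and Hey2. They were chosen by symbol and not by their values, though earlier results of these data were known. They took up 8 of the 20794 rows of the deposited table, where 12760 rows named 9026 genes. Hey1 was measured by 3 probes, Hey2 by 2 probes and Hes5, Hes6 and Hes7 by 1 probe each, and all 8 rows gave a value for every mouse in every group. No filter on low values was applied to them.

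The arrays compared each cloned mouse with a pool of conventionally bred mice on 2-colour slides. There were 4 groups, the livers and spleens of clones labelled Dll1 and of clones labelled wt, with 4 mice per genotype. All animals were 129/SvJ males of 18 to 19 weeks, clones and pools alike. The pool beside a Dll1 clone came from Dll1 heterozygotes and the pool beside a wt clone from wt mice, so a ratio compares the manner of birth and never a mutant with a wildtype mouse. Each mouse was hybridised on 2 arrays per organ with the dyes swapped, which made 32 arrays. Per the labels' protocols a pool held RNA of 6 animals, while the labels list 4 mouse identifiers, and 20 µg of total RNA went into each labelling. The labels call the genotype of the clones Dll1 and give no allele, no donor cell and no statement on how many donor lines were used. A single pool per genotype and organ stood beside all 4 clones, so the pool's own spread is in none of the errors. In these tissue extracts fewer cells of a type and less RNA per cell cannot be told apart, and a ratio to the same organ does not show whether that organ expresses the gene at all.

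Notch receptors are cut when a ligand such as Dll1 on a neighbouring cell binds them. The freed intracellular domain joins the DNA-binding protein RBPJ and switches on target genes, among which Hes and Hey genes are the best known. Hes5 and Hes7 are such targets, Hes5 in neural progenitors and Hes7 in the segmentation clock of the embryo, where its protein shuts off its own gene. Hey1 and Hey2 are targets in endothelium, heart and smooth muscle, where they act in arterial fate. Hes6 is the exception of the family, since its protein opposes Hes1 and lets differentiation go on, and it is known in neural and muscle precursors more than as a target of RBPJ. In adult spleen the ligand Dll1 is known for the making of marginal zone B cells through Notch2, and in adult liver Notch acts in bile ducts and vessels.

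RefSeq promoters of build GRCm38.p6, 250 bases before and 50 bases after a start site, were on hand for Hes5, Hes6, Hes7 and Hey2. They are shown for the members whose window holds the RBPJ core TGGGAA, since this is the element through which Notch would reach them. Each line gives the 250 bases before the start site, 5′ to 3′ on the gene's strand, with the core on either strand in capitals. The Hes5 stretch is chr4:154960673-154960922 on the plus strand, the Hes7 stretch chr11:69120203-69120452 on the plus strand and the Hey2 stretch chr10:30842784-30843033 on the minus strand.
Hes5: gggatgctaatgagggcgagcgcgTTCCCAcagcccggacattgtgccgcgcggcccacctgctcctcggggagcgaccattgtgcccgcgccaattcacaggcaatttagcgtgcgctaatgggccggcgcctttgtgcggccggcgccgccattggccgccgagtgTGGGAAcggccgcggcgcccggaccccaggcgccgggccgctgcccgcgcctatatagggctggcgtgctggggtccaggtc
Hes7: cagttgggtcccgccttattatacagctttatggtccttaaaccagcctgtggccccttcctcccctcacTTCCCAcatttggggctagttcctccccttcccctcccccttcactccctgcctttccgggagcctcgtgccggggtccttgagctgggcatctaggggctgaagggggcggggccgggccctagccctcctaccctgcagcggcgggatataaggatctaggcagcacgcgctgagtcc
Hey2: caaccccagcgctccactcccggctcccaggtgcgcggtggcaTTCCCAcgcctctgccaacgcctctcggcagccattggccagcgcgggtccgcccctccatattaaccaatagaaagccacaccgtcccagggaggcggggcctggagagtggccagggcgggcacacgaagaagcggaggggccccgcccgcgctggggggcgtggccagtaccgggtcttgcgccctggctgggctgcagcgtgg

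With the start site counted as 0, Hes5 held the core at -226 to -221 on the opposite strand and at -82 to -77 on its own strand, so the 2 copies lie in opposite orientation. Hes7 held it once, at -180 to -175 on the opposite strand. Hey2 held it at -207 to -202 on the opposite strand and again across the start site, at -3 to 2, of which the printed stretch shows only the first. Neither of the 2 Hes6 promoter entries held it. Of all 32851 RefSeq promoters of 300 bases, 25.6% held TGGGAA at least once and 3.79% held it 2 or more times. CACNAG, the N-box that Hes proteins can bind, was found 2 times in 1 of the Hes6 entries and once in Hes7, against 42.5% of all promoters that held it. CACGTG, the E-box, was found in none of these entries, against 7.15% of all promoters. A match is only a run of letters, and no binding was measured here.

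The genes lie apart in the genome. In GRCm38.p6 Hes5 spans chr4:154960626-154962372, Hes6 chr1:91411483-91414038, Hes7 chr11:69118906-69124054, Hey1 chr3:8663359-8667038 and Hey2 chr10:30832359-30842783. On the array most of them do not lie apart. Hes5, Hes7, the first Hey1 probe and the first Hey2 probe fill rows 33, 34, 35 and 36 of the table, inside a short alphabetical panel of developmental genes. Probe 2 of Hey1 and probe 2 of Hey2 are neighbours too, on rows 20320 and 20321, probe 3 of Hey1 is on row 20598 and Hes6 alone sits in the body of the table, on row 3549.

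3 facts about the table bear on every value. Names were read with a shift, row n taking the symbol of platform probe n minus 11. Over 300 probes of genes that all cells use, the median SD across spleen arrays was 0.420 at this shift, against 0.747 with no shift, 0.621 to 0.805 over the other shifts tried and 0.714 over all rows. Split into 8 stretches of the table, this shift was the lowest of 201 in 7 of them, those of the Hes5, Hes7, Hey1 and Hey2 rows among them. In the exception, the stretch that holds Hes6, 25 probes of such genes gave 0.463, and 3 of 201 shifts were lower. The values were read as log2 ratios of clone over pool in both dye orientations, and this direction is not settled. Constants that stand for a missing channel were positive on all 748 occasions with the clone in Cy5 and negative on all 435 with it in Cy3, so on this reading they always mark an empty Cy3 channel. With the Cy3 arrays turned, the same signs would always mark an empty pool channel. Over rows, the mean ratios of the 2 orientations correlated at -0.70 in wt liver and -0.38 in wt spleen. In Dll1 clones it was -0.30 in spleen and -0.26 in liver. The 2 arrays of a mouse correlated at -0.55 in wt liver, -0.19 in wt spleen, -0.13 in Dll1 spleen and -0.12 in Dll1 liver. Arrays of different mice correlated at 0.01 to 0.04. Results are therefore also given with the Cy3 arrays turned in sign. Array medians lay between -0.07 and 0.08, with 59 to 230 rows missing on the liver arrays and 248 to 2859 on the spleen arrays.

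**Figure D1:**
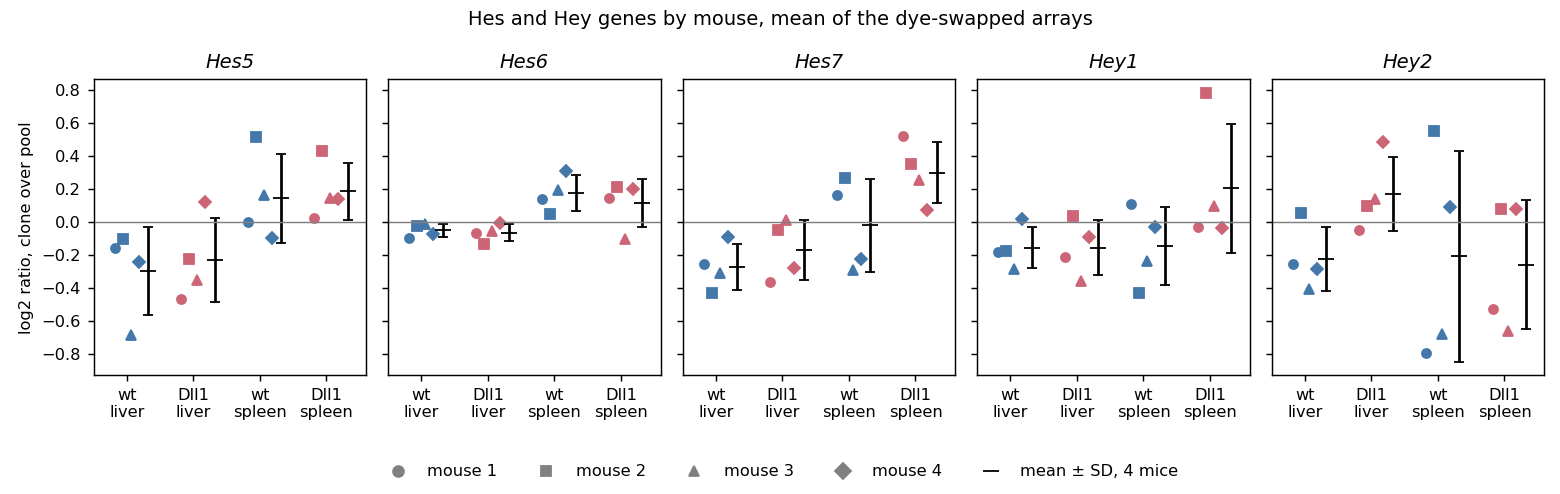
Each panel plots 1 gene, with the log2 ratio of clone over pool on the y axis and the 4 groups on the x axis. Points are mice (mean of the dye-swapped arrays, probes averaged), bars the mean ± SD of 4 mice. As deposited, the liver points of Hes5, Hes6 and Hes7 lie at or under 0 in 22 of 24 cases, the spleen points of these genes mostly above it, and the widest scatter is that of Hey2 in spleen.

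None of the 5 genes passed an adjusted p of 0.05 in any of 10 comparisons by limma with Benjamini-Hochberg adjustment over all features, 50 tests in all, and the smallest adjusted p was 0.164. At an unadjusted p under 0.05 there were 13 of these 50. As deposited, 32 of 40 liver values (5 genes in 8 mice) were below 0, where 50.1% of the liver values of all features were, and 14 of 40 spleen values, where 48.8% were. With the Cy3 arrays turned it was 15 of 40 in liver beside 44.1%, and 5 of 40 in spleen beside 47.3%. The excess of liver values below 0 was thus seen only as deposited, though not every mean changed sign. Hes7 in wt liver (-0.27 as deposited, -0.22 turned) and Hes5 in Dll1 liver (-0.23, -0.14) had means below 0 on both. The 40 values are not separate, since mice of a group share a pool and Hes5, Hes7, Hey1 and Hey2 have probes on neighbouring rows. As deposited, other rows from 12 to 41 also lay below 0 in wt liver, in 23 of 24 cases. The part of row position was not tested. As deposited the group means ran from -0.30 (Hes5, wt) to 0.17 (Hey2, Dll1) in liver and from -0.26 (Hey2, Dll1) to 0.30 (Hes7, Dll1) in spleen. Turned, they ran from -0.22 (Hes7, wt) to 0.18 (Hes6, wt) in liver and from 0.17 (Hes5, Dll1) to 0.62 (Hey1, Dll1) in spleen. The values by gene that follow are as deposited unless the turn is named.

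Hes5 lay below 0 in wt liver as deposited. Its 4 mice lay at -0.16, -0.11, -0.69 and -0.24, all below the pool, with mouse 3 far under the rest. The mean was -0.30 ± 0.26 (SD, n = 4 mice), with an SE of 0.09 and adjusted p = 0.341 by limma. Without mouse 3 the mean was -0.17, and turned it was 0.08. The exact two-sided permutation test over 4 mice gave p = 0.125, the smallest it can give. Of all features 9.02% had all 4 wt livers below 0. In Dll1 liver the mice lay at -0.47, -0.23, -0.35 and 0.12, so that 3 were below 0 and mouse 4 above it, and the mean of -0.23 ± 0.25 (SD, n = 4 mice) did not pass (adjusted p = 0.796). The livers of the genotypes overlapped, and their shifts differed by 0.07 (SE 0.15, adjusted p = 0.973).

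Spleen values of Hes5 were on the other side. Dll1 spleens lay at 0.02, 0.43, 0.14 and 0.14, all above 0 as in 8.33% of all features, and wt spleens at -0.0025, 0.51, 0.16 and -0.10, 2 above and 2 below. The means were 0.18 ± 0.17 in Dll1 and 0.14 ± 0.27 in wt spleen (SD, n = 4 mice each), with adjusted p of 0.845 and 0.840 by limma. In wt clones every liver lay under every spleen, a difference of -0.44 (SE 0.18, adjusted p = 0.488). The exact two-sided permutation test gave its smallest possible p, 0.0286, but it exchanged livers and spleens as if they came from separate mice. Both organs came from the same 4 mice, so this p ignores the pairing. Of all features 4.61% showed such a gap without overlap in wt clones. In Dll1 clones liver minus spleen was -0.42 (SE 0.17, adjusted p = 0.646), with overlap through the liver of mouse 4.

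Hes7, its neighbour on the array, gave the smallest adjusted p of the set. The wt livers lay at -0.25, -0.43, -0.31 and -0.10, all below 0, with a mean of -0.27 ± 0.14 (SD, n = 4 mice), an SE of 0.06 and adjusted p = 0.248. Dll1 livers lay at -0.37, -0.05, 0.01 and -0.28, which overlap the wt livers, with a mean of -0.17 ± 0.18 (SD, n = 4 mice, adjusted p = 0.796). Averaged over both genotypes the liver shift was -0.22 (SE 0.05, adjusted p = 0.164), and the exact two-sided permutation test over 8 mice gave p = 0.0156.

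In the Dll1 spleens Hes7 lay at 0.52, 0.35, 0.25 and 0.07, all above 0. Their mean of 0.30 ± 0.19 (SD, n = 4 mice) did not pass (adjusted p = 0.838). The wt spleens split, with mice 1 and 2 at 0.16 and 0.27 and mice 3 and 4 at -0.29 and -0.23, a mean of -0.02 ± 0.28 (SD, n = 4 mice). Turned, the means were 0.32 in Dll1 and 0.36 in wt spleen. In Dll1 clones all livers lay below all spleens, at a difference of -0.47 (SE 0.16, adjusted p = 0.620), a gap that 4.24% of all features showed in that direction. The genotype difference in spleen, 0.32 (SE 0.20, adjusted p = 0.882), did not pass.

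Hes6 varied least. Its wt livers lay at -0.10, -0.03, -0.01 and -0.07 and its Dll1 livers at -0.07, -0.13, -0.06 and -0.007, all 8 below 0. Of all features 1.73% had all 8 livers below 0, and 9.85% the 4 Dll1 livers. The means were -0.05 ± 0.04 and -0.07 ± 0.05 (SD, n = 4 mice each). The SD of Hes6 stood at the 9.51th percentile of all features in wt liver, and no higher than the 11.7th percentile in any group. The shift averaged over both livers was -0.06 (SE 0.03, adjusted p = 0.374 by limma), and the exact two-sided permutation test over 8 mice gave 0.00781, the smallest p it can give.

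The spleens of Hes6 lay above the livers in most mice. The wt spleens were at 0.14, 0.05, 0.20 and 0.31, all above 0 as in 8.93% of all features, and the Dll1 spleens at 0.14, 0.21, -0.10 and 0.20, with mouse 3 alone below 0. In wt clones every liver lay under every spleen, as in 4.61% of all features. The difference was -0.22 (SE 0.08, adjusted p = 0.464 by limma). The difference in Dll1 clones was -0.18 (SE 0.13, adjusted p = 0.724), and mouse 3's spleen fell within the range of the livers.

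Hey1 in liver had the same mean in both genotypes as deposited. The wt livers lay at -0.18, -0.18, -0.29 and 0.02 and the Dll1 livers at -0.21, 0.04, -0.36 and -0.09, 3 of 4 below 0 in each. Both means were -0.16, with an SD of 0.13 in wt and 0.17 in Dll1 (n = 4 mice each), and the adjusted p by limma was 0.366 and 0.796. The difference of the genotypes was 0.00017 with a 95% interval of -0.21 to 0.21, which is wider than the shift itself. Turned, the means were 0.16 in wt and 0.02 in Dll1 liver, a difference of -0.14 (SE 0.06, adjusted p = 0.0780). Averaged over both, the liver shift was -0.16 (SE 0.05, adjusted p = 0.260).

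The 3 probes of Hey1 differed. In wt liver they gave -0.25, -0.16 and -0.06, and in Dll1 liver -0.32, -0.08 and -0.07, so that the first probe, on row 35, carried most of the shift. Taken on its own by limma, that probe had an adjusted p of 0.801 in Dll1 and 0.311 in wt liver. In wt spleen the probes gave -0.22, -0.35 and 0.12, which differ in sign.

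In spleen Hey1 varied with single values. The Dll1 spleens lay at -0.03, 0.78, 0.10 and -0.04, with mouse 2 far above the others, and the wt spleens at 0.11, -0.43, -0.24 and -0.03. The means were 0.20 ± 0.39 and -0.15 ± 0.24 (SD, n = 4 mice each), with adjusted p of 0.848 and 0.829. Mouse 2's value came from probes 2 and 3 with the clone in Cy5, at 1.85 and 2.86, while its first probe gave 0.03 in Cy5 and 0.39 in Cy3. Its second probe held no value in Cy3, so no swapped array balanced the dye there. Over the Dll1 spleens that probe was measured on 6 of 8 arrays and probe 3 on 7 of 8.

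Hey2 lay lower in wt than in Dll1 liver as deposited, a difference that did not pass. The wt livers lay at -0.25, 0.05, -0.41 and -0.29, 3 below 0, and the Dll1 livers at -0.05, 0.10, 0.14 and 0.48, 3 above 0. The means were -0.22 ± 0.19 and 0.17 ± 0.23 (SD, n = 4 mice each). The difference was 0.39 (SE 0.13, 95% interval 0.11 to 0.68), with adjusted p = 0.935 by limma, and the exact two-sided permutation test over mice gave p = 0.0571. The ranges overlapped through wt mouse 2 and Dll1 mouse 1. Turned, the difference had the other sign, -0.18 (SE 0.15, adjusted p = 0.353). As deposited it was the only 1 of 5 members with an unadjusted p under 0.05 in this comparison, as 4.91% of all features had, and 0% of features passed when adjusted.

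Both Hey2 probes showed the sign of that difference but not its source. The second probe gave -0.25 in wt and 0.21 in Dll1 liver, a difference of 0.47 (SE 0.17). The first gave -0.24 and 0.13, a difference of 0.37 (SE 0.24), and its Dll1 mean rested on mouse 4 at 0.97 beside -0.14, -0.05 and -0.27. On the second probe mouse 3 was the highest, at 0.56, and mouse 4 lay at -0.0025.

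Hey2 in spleen could not be placed. The wt spleens ranged from -0.79 to 0.55 and the Dll1 spleens from -0.66 to 0.08, with means of -0.21 ± 0.64 and -0.26 ± 0.39 (SD, n = 4 mice each, adjusted p 0.879 and 0.840). The second probe was measured on 5 of 8 arrays in each spleen group, and in Dll1 spleen on 1 array with the clone in Cy3, where it read -3.57. The 95% interval of the wt spleen shift ran from -0.87 to 0.45.

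The counts of members can be set against all features, comparison by comparison. In wt liver 4 of 5 members had an unadjusted p under 0.05, all lower (Hes5, Hes7, Hey1, Hey2), where 11.7% of 17037 features did in either direction and 5.82% in the lower direction. At an adjusted p under 0.05 it was 0 of 5 members against 0.106% of features. For the liver mean of both genotypes 4 of 5 members, Hes5, Hes6, Hes7 and Hey1, had an unadjusted p under 0.05, all lower, against 13% of features in either direction and 7.38% lower, and 0 of 5 against 0.112% passed when adjusted. In Dll1 liver 0 of 5 members had an unadjusted p under 0.05, against 5.53% of features, and 0% of features passed when adjusted.

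The remaining comparisons held fewer. In wt spleen 5.96% and in Dll1 spleen 4.84% of features had an unadjusted p under 0.05, and 0 of 5 members did in either. For the spleen mean it was 0 of 5 members against 7.6% of features, and for the spleen difference of the genotypes 0 of 5 against 4.6%. In the liver minus spleen comparison 2 of 5 members, Hes5 and Hes6, did so in wt clones against 9.48% of features, and 2 of 5, Hes5 and Hes7, in Dll1 clones against 7.58%. Adjusted, 0 of 5 members and 0% of features passed in each of these 6 comparisons. Liver and spleen comparisons of a genotype share no arrays, but the organ differences and the single-organ shifts share theirs and are not separate evidence.

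The arrays of a mouse differed by dye. Hes6 read higher with the clone in Cy5 than in Cy3 in all 16 pairs of arrays, which 2.25% of features did. In wt liver its Cy5 arrays gave 0.01, 0.14, 0.14 and 0.22 and its Cy3 arrays -0.20, -0.20, -0.16 and -0.37, groups that do not overlap, where 37.5% of features had Cy5 above Cy3 in all 4 mice. Hey1 read higher in Cy5 in 14 of 16 pairs, Hey2 in 12, Hes7 in 10 and Hes5 in 8. Hes7 went the other way in wt liver, with Cy5 lower in all 4 mice, at -0.49 ± 0.11 against -0.06 ± 0.20 in Cy3 (SD, n = 4 arrays each), as 27.6% of features did. In wt spleen the same probe was higher in Cy5 in all 4 mice, by 0.72 on average, where 24.8% of features were. The dye gap of Hes7 was thus not of 1 sign across groups, while that of Hes6 was.

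**Figure D2:**
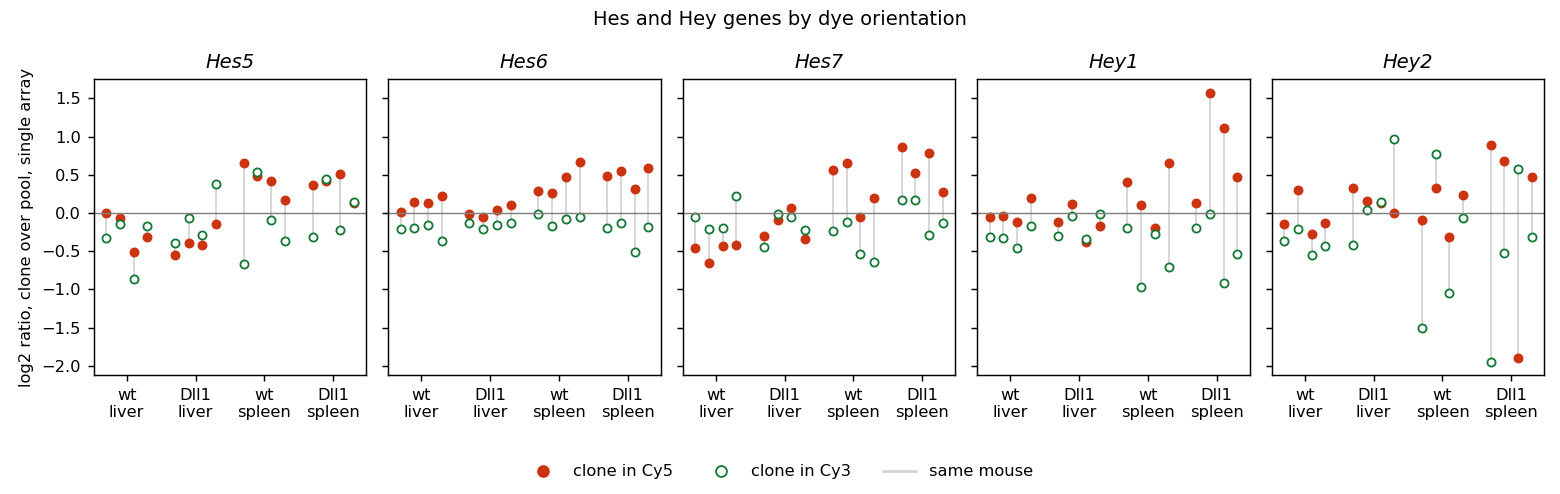
The y axis is the log2 ratio of clone over pool on a single array, the x axis the 4 groups; filled red points have the clone in Cy5, open green points in Cy3, and a grey line joins the arrays of 1 mouse. Hes6 has every red point above its green partner in all 16 pairs, and Hes7 has red below green in all 4 wt livers.

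With the Cy3 arrays turned, several signs turned too. Hes6 in wt liver went from -0.05 to 0.18 (adjusted p = 0.0159 by limma), Hey1 from -0.16 to 0.16 (adjusted p = 0.0178) and Hey2 from -0.22 to 0.16 (adjusted p = 0.0198). Hes7 kept its sign there, -0.27 as deposited and -0.22 turned (adjusted p = 0.00774), and Hes5 lay at 0.08 (adjusted p = 0.268). On that reading 55.3% of all features passed in wt liver, so a pass there is near the background for a member. The direction of Hes5, Hes6, Hey1 and Hey2 in wt liver therefore depends on a reading that is not settled. In Dll1 liver, where 0.0587% of features passed when turned, 0 of 5 members passed, and Hes5 lay at -0.14 and Hes7 at 0.01.

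When turned, 13 of the 50 member tests passed in all, 4 of them in wt liver. For the liver mean 3 of 5 members passed, Hes6 at 0.13 (adjusted p = 0.00567), Hes7 at -0.10 (adjusted p = 0.0249) and Hey1 at 0.09 (adjusted p = 0.0375), where 41.7% of features did. For the liver difference of the genotypes 2 of 5 passed, Hes7 at 0.22 (adjusted p = 0.0201) and Hes5 at -0.22 (adjusted p = 0.0415), where 40.5% of features did. The spleen mean was above 0 and passed for 3 of 5 members, Hes6 at 0.31 (adjusted p = 0.0264), Hes7 at 0.34 (adjusted p = 0.0279) and Hey1 at 0.50 (adjusted p = 0.0321), where 11.7% of features passed. As deposited these spleen means were 0.14, 0.14 and 0.03, of the same sign. For wt liver minus spleen Hes7 passed at -0.58 (adjusted p = 0.00476), where 20.8% of features did, beside -0.25 as deposited.

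The position in the table moved with the liver values. Around Hes5, from 10 rows before to 10 rows after and leaving out every Hes and Hey row, 14 of 15 rows lay below 0 in wt liver, with a median of -0.24 and quartiles of -0.27 and -0.19. Hes5 itself was at -0.30. Over all rows the median was 0.01, and 2.26% of rows lay below that neighbourhood median. Around Hes7 the median was -0.24, around the first Hey1 probe -0.23 and around the first Hey2 probe -0.23, since they share most of those rows. Rows 12 to 41, with the Hes and Hey rows left out, lay below 0 in 23 of 24 cases in wt liver, with a median of -0.23, while rows 42 to 20289 had a median of 0.01 and were below 0 in 44.5% of cases. In Dll1 liver rows 12 to 41 had a median of -0.04, with 15 of 24 below 0. The last stretch, rows 20290 to 20794, which holds the later Hey1 and Hey2 probes, had medians of -0.16 in wt and -0.10 in Dll1 liver, with 83.7% and 74.9% of rows below 0. Around Hes6 the liver medians were -0.03 in wt and -0.02 in Dll1 clones. Its spleen medians were 0.01 in wt and 0.14 in Dll1 clones, where Hes6 itself lay at 0.11.

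In Dll1 liver the rows around Hes5 had a median of -0.14, with 11 of 15 below 0, and Hes5 itself lay at -0.23. In spleen the rows around Hes5 had a median of 0.03 in wt and 0.08 in Dll1 clones. Rows 12 to 41 had a median of 0.11 in wt spleen, with 5 of 24 below 0. In Dll1 spleen it was 0.12, with 10 of 24 below 0. Rows 20290 to 20794 had medians of 0.02 in wt and 0.13 in Dll1 spleen, with 46.6% and 37.5% below 0. Rows 42 to 20289 were below 0 in 47.5% of cases in wt and 49.4% in Dll1 spleen. No source used here tells whether neighbouring rows are neighbouring spots on the slide. The part of row position in the members' liver or spleen values as a cause was not tested. Values with the neighbouring rows subtracted are given below.

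**Figure D3:**
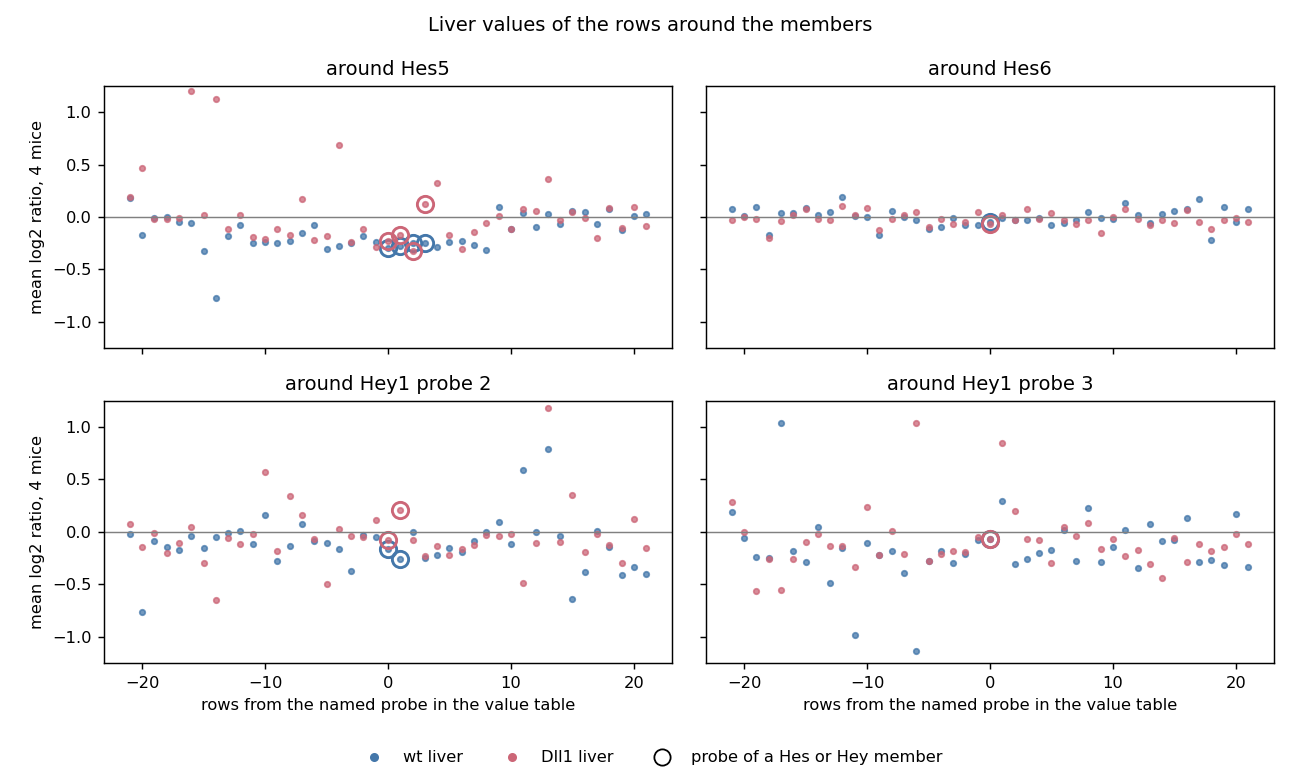
The x axis counts rows of the value table from a named probe and the y axis is the mean log2 ratio of 4 mice; small points are single rows, blue for wt and red for Dll1 liver, and rings mark probes of the Hes and Hey members. Around Hes5 the wt liver rows form a band with a median of -0.24 that takes in the ringed members, while around Hes6 the rows lie about 0.

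The median of up to 10 rows on each side was then subtracted on each array, an alternative chosen after the data were seen. Here only the row itself was left out, so other Hes and Hey rows were among those subtracted. A shift that neighbouring members share could be reduced by this alone. After the subtraction the wt liver shifts shrank. Hes5 in wt liver went from -0.30 to -0.10 (SE 0.07), Hes7 from -0.27 to -0.09 (SE 0.06), Hey1 from -0.16 to -0.01 (SE 0.05) and Hey2 from -0.22 to -0.07 (SE 0.08). Hes6 went from 0.11 to -0.05 in Dll1 spleen (SE 0.16), and its liver minus spleen difference in Dll1 clones from -0.18 to 0.0063 (SE 0.13). Of the 50 tests 3 had an unadjusted p under 0.05 after the subtraction, all of Hey2 and all with the Dll1 livers in them. Of these 1, the genotype difference in liver, had it before and 2 were new, and the smallest adjusted p of the 50 was 0.492. In wt liver 0 of 5 members had an unadjusted p under 0.05 after the subtraction, against 9.77% of features, and 0 of 5 an adjusted p under 0.05, against 0.0646%. Hey2 in Dll1 liver grew from 0.17 to 0.28 (SE 0.08, adjusted p = 0.800), where 5.41% of features had an unadjusted p under 0.05. Its genotype difference in liver was 0.35 (SE 0.12, adjusted p = 0.961) beside 0.39 as deposited, in a comparison where 4.72% of features had an unadjusted p under 0.05. Its liver minus spleen difference in Dll1 clones went from 0.43 to 0.59 (SE 0.18, adjusted p = 0.674), where 7.05% did.

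**Figure D4:**
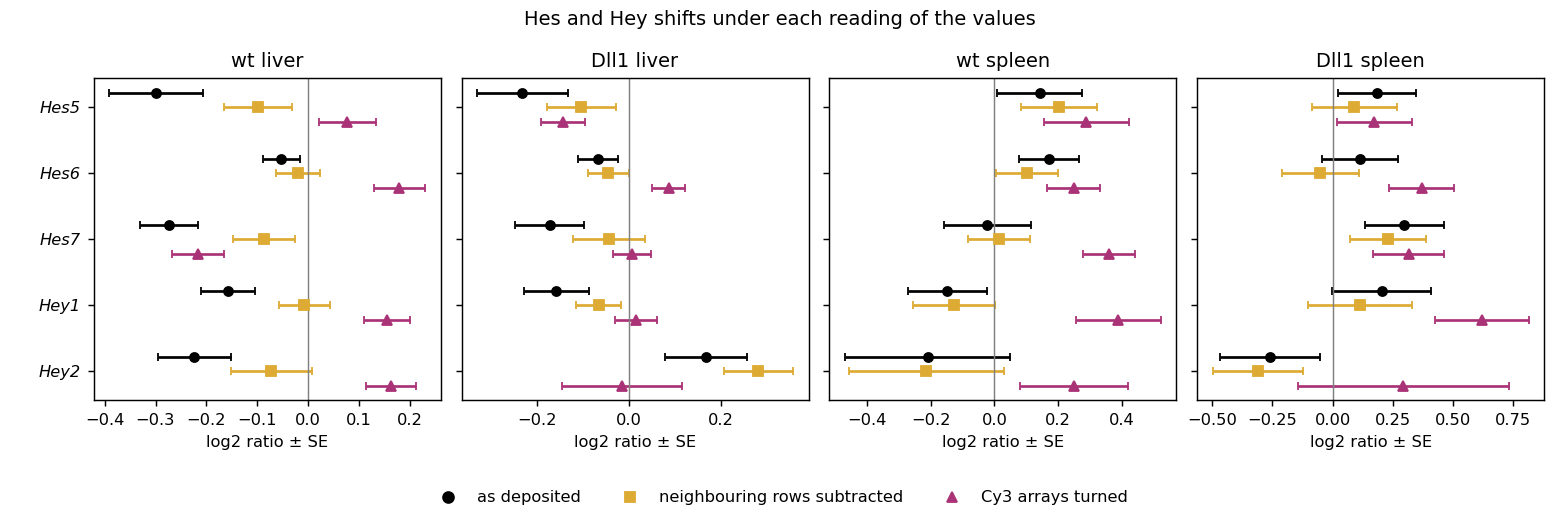
Each panel is 1 group, with the log2 ratio ± SE of limma on the x axis and the genes on the y axis; black circles are values as deposited, yellow squares with the neighbouring rows subtracted and purple triangles with the Cy3 arrays turned. In wt liver the yellow squares of all 5 genes lie nearer to 0 than the black circles, and 4 of 5 purple triangles lie above 0.

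No other measured gene of the pathway lists passed. Of the other family members and relatives 5 of 7 listed genes were measured, Hes1, Hes2, Hes3, Bhlhe40 and Bhlhe41, and none passed in any comparison (smallest adjusted p = 0.321 by limma). Hes1, the general Notch target of the family, lay at -0.07 ± 0.06 in wt liver and 0.04 ± 0.18 in Dll1 liver (SD, n = 4 mice each), and at 0.04 ± 0.05 and -0.22 ± 0.59 in the spleens. Hes2 and Hes3, which stand on the same panel as Hes5, had liver means of both genotypes of -0.15 (SE 0.07, adjusted p = 0.415) and -0.12 (SE 0.06, adjusted p = 0.430), and spleen means of -0.50 and 0.39 (adjusted p = 0.804 and 0.724). In wt liver 2 of these 5 genes were above 0 and 3 below, with a median of -0.07 beside 0.01 over all features.

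Of the Notch ligands and receptors 9 of 10 were measured, and none passed (smallest adjusted p = 0.191). In wt liver 7 of 9 lay below 0, with a median of -0.06 beside 0.01 over all features, and 1 had an unadjusted p under 0.05 in the higher and 2 in the lower direction, 3 of 9 beside 11.7% of all features. Dll1, the ligand the cohorts are named for, lay at -0.40 ± 0.42 in wt liver, -0.08 ± 0.29 in Dll1 liver, 0.25 ± 0.75 in wt spleen and 0.15 ± 0.67 in Dll1 spleen (SD, n = 4 mice each). Clone and pool share the genotype, so this is no check of the labels. Averaged over genotypes in liver, Notch4, a receptor of endothelium, lay at 0.10 (SE 0.03, adjusted p = 0.305) and Dll3, a ligand-like protein of the somites, at 0.57 (SE 0.22, adjusted p = 0.338). That mean of Dll3 joins unlike groups, -0.06 ± 1.02 in wt and 1.20 ± 0.40 in Dll1 liver (SD, n = 4 mice each). In spleen Notch2, the receptor of marginal zone B cells, lay at 0.27 (SE 0.08, adjusted p = 0.543), above 0 in all 8 spleens, at 0.20 to 0.44 in wt and 0.13 to 0.28 in Dll1 clones. Notch3, the receptor of vascular smooth muscle, lay at -0.26 in the spleen mean (SE 0.18, adjusted p = 0.757).

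Of the nuclear complex and direct targets of Notch 10 of 15 were measured and none passed (smallest adjusted p = 0.318). In the liver mean Dtx1, a regulator of Notch trafficking, lay at 0.07 (adjusted p = 0.421) and Rbpj, which recruits the Notch complex to DNA, at 0.10 (adjusted p = 0.466). In the spleen mean Dtx1 lay at 0.19 (adjusted p = 0.714) and the coactivator Maml1 at -0.26 (adjusted p = 0.756). The list's median was 0.02 in the liver mean, with 6 of 10 above 0, beside 0.0038 over all features.

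Of the listed corepressors of Hes and Hey proteins and their relatives, 8 of 13 were measured and none passed (smallest adjusted p = 0.398). In the liver mean 6 of 8 lay below 0, among them Tle6 at -0.08 and Tle4 at -0.10, both of the Groucho family. In the spleen mean 7 of 8 lay above 0, with a median of 0.12 beside 0.01 over all features, which came from 7 of 8 in Dll1 spleen (median 0.22) and 4 of 8 in wt spleen (median 0.02). The smallest p-values there were those of Tle4 at 0.25 (adjusted p = 0.683) and Tle2 at 0.20 (adjusted p = 0.707). Of the helix-loop-helix factors that Hes and Hey proteins oppose or pair with, 8 of 17 were measured and none passed (smallest adjusted p = 0.339). Id4, an inhibitor without a DNA-binding domain, lay at 0.08 in the liver mean, and Tcf3 and Tcf12, the ubiquitous E proteins, at -0.08 in liver and at 0.50 in spleen respectively (adjusted p = 0.418 and 0.661), with Tcf3 at 0.12 in spleen.

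Markers of cell types that the extracts could hold were set beside these values. They are given as deposited only, a reading that is not settled. All 6 measured hepatocyte genes of 8 listed lay below 0 in wt liver, with a median of -0.27, where 45.2% of all features did. All 6 had an unadjusted p under 0.05 by limma in the lower direction, against 5.82% of features. The mean over these genes ran from -0.37 to -0.13 in the 4 wt livers and from -0.22 to -0.05 in the 4 Dll1 livers. In the liver mean Fgb, the fibrinogen beta chain, lay at -0.31 (SE 0.04, adjusted p = 0.0265 by limma). Hba-a1, a haemoglobin chain, lay at -0.44 (SE 0.05, adjusted p = 0.0139), the only erythroid gene of 3 measured to pass there. The other 2 lay above 0. In wt liver alone Hba-a1 lay at -0.56 (SE 0.06, adjusted p = 0.0405). After the arrays were scaled to a common spread 0 features passed in the liver mean and 1 in wt liver. In spleen all 3 erythroid genes were below 0 in the spleen mean, with a median of -0.69, and all 3 measured B cell genes above it, with a median of 0.45. Ms4a1, which encodes CD20, lay at 0.57 there (SE 0.08, adjusted p = 0.322) and Cd74 at 0.45 (adjusted p = 0.535), beside 0.07 and -0.13 in the liver mean. The part of these cells in the Hes and Hey values was not tested.

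The cells in which Hey1 and Hey2 are best known gave no call. All 10 endothelial markers were measured, 6 below and 4 above 0 in wt liver, with a median of -0.05. Their mean ran from -0.12 to -0.01 in wt and from -0.04 to 0.03 in Dll1 livers. Kdr, a receptor for VEGF, lay at -0.16 in the liver mean (SE 0.04, adjusted p = 0.154) and Cdh5, the cadherin of endothelial junctions, at -0.16 (adjusted p = 0.266). In spleen Cdh5 lay at 0.17 and Tie1 at 0.14 (adjusted p = 0.703 and 0.714). None passed among 5 markers of smooth muscle and stellate cells (smallest adjusted p = 0.292), 6 of bile duct (0.512), 3 of T cells (0.395) and 4 of nerve and neuroendocrine cells (0.606). Myh11 and Pdgfrb lay at -0.06 and 0.04 in the liver mean, and Myh11 and Des at -0.15 and 0.06 in the spleen mean. Krt8 and Krt19 lay at 0.04 and -0.02 in liver, Cd3d and Cd4 at 0.07 and -0.09, and Chga and Syp at 0.05 and -0.02. In spleen Krt19 and Krt8 lay at 0.13 and -0.10, Cd4 and Cd3d at 0.11 and -0.11, and Tubb3 and Gfap at -0.12 and 0.04.

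Among themselves the members varied loosely together. Over the 16 values of mice by organ, which share the organ difference and the pools, Hes5 and Hes7 correlated at 0.56, Hes5 and Hes6 at 0.45 and Hes7 and Hey1 at 0.44 (Pearson's r). Hes5, Hes7 and the first Hey1 probe also lie on neighbouring rows, and the part of row position in these correlations was not tested. Hey2 stood apart, at 0.21 with Hes5 and between -0.13 and -0.07 with the other 3. Of 8718 named genes without a missing value, Hes6 was most like Coro1a (r = 0.91), Shisa5 (0.90) and Cd3g (0.89), where its top percentile began at 0.71. Hes7 was most like Psmd13 (0.90), Rbms3 (0.90) and Ufd1 (0.89), and Hey1 most like Hspb7 (0.90), Pnp (0.89) and Bst2 (0.89). Hes5 was most like Cdh22 (0.81), Hmox2 (0.80) and Hoxb4 (0.80), and Hey2 most like Phyhipl (0.79), Abcb11 (0.79) and Yipf5 (0.78). These are the highest of many values over 16 points, given as a description.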

How the data were processed

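RNA was measured on 2-colour arrays, 32 in all, in liver and spleen of cloned mice. The table deposited by the authors holds a log2 ratio per row and array; no source used here names its normalization, scanner or filters. Per the labels' protocols RNA came from RNeasy kits and was dye-coupled after reverse transcription. Values of size over 9 (1183) were set to missing, probes of a gene were averaged within an array, and then both dye orientations of a mouse. limma 3.58.1 in R 4.3.3 (lmFit, eBayes) was run for each comparison on the groups concerned, over all features with at least 3 mice a group, with Benjamini-Hochberg adjustment at 0.05. It was tested on simulated data. Single values were also tested by exact two-sided permutation over mice, which between organs left out the pairing of a mouse's liver and spleen. Positions, symbols and promoters come from RefSeq tables of GRCm38.p6, to which all 12771 named probes matched, and were read with Python 3.11.15 and pandas 2.3.3.

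Groups follow the labels. Liver and spleen of a mouse carry the same identifier in the labels and were paired by it as an alternative; deviations from group means of a mouse's organs correlated at 0.0006 to 0.08. All 5 members were named whatever their values. Of each other list, genes past adjusted p 0.05 were named, otherwise the 2 with the smallest p in the liver mean and the spleen mean, and for each member the 3 genes with the highest Pearson r. The members and lists were chosen with earlier results of these data known. Nothing says that the clones came from separate donor cells, so p-values measure only the spread between these mice. Alternatives covered the dye turn, scaling, constants, probes, names, pooled fits, single arrays, left-out mice and, added after the data were seen, the neighbouring rows. The number of arrays sets the precision, and spot signal over background was not used here.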

Additional observations from a re-analysis of the deposited data

Results flagged for a closer look

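Hey1 in Dll1 spleen held a value far from the others of its group. Mouse 2 read 0.78 as a gene mean, where the next mouse read 0.10, and 1.85 on the second probe, where the next mouse read -0.16. These were 2 of 40 sets of 4 mice examined in this way, and chance alone marks about 1 in 20. The second probe of this mouse was measured on the Cy5 array only.

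Hes6 lay below 0 in all 4 wt livers and above 0 in all 4 wt spleens. Of all features 9.02% had all 4 wt livers below 0 and 8.93% all 4 wt spleens above 0. A liver below spleen gap without overlap was shown by 4.61% in wt clones. The difference of -0.22 was tested by limma and did not pass (adjusted p = 0.464). With the Cy3 arrays turned it was -0.07.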

How the results depend on the processing

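Of 930 values of the 50 member results under alternatives, 819 kept sign and side of the threshold, 88 changed sign without being called, 6 reversed with a call and the others gained a call or crossed the unadjusted threshold in the exact test. Several alternatives leave a member's estimate as it was and can change only its error or p-value. Among them are the fit of all 4 groups, the single arrays and the exact test. A kept sign there was fixed in advance, so the 819 is no measure of robustness. The reversals all came with the Cy3 arrays turned: wt liver Hes6 0.18, Hey1 0.16 and Hey2 0.16, the liver mean of Hes6 0.13 and Hey1 0.086, and the liver genotype difference of Hes5, -0.22. Leaving out each mouse changed 29 of 320 signs and called no member.

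Counts of features past the threshold moved more. Turning gave 9421 in wt liver, 10 in Dll1 liver, 163 in wt spleen, 6892 and 7092 for the liver difference and mean, 1981 for the spleen mean and 3536 for wt liver minus spleen. One fit of all 4 groups gave 0 in wt liver, 61 in wt spleen, 960 in Dll1 spleen, 0 for the liver mean, 58 and 611 for the spleen difference and mean, and 7 for Dll1 liver minus spleen. Scaling gave 1 in wt liver and 0 for the liver mean, kept constants 4 in wt liver, single probes 31 in each, and the neighbouring rows 11 in wt liver. Single arrays gave 76 in wt liver, 16 in wt spleen, 222 and 60 for the liver and spleen means, and 31 and 1 for liver minus spleen in wt and Dll1. Needing both arrays gave 29 for the liver mean and 16 for wt liver minus spleen, which unshifted names made 5. As deposited these counts were 18 in wt liver, 19 for the liver mean and 0 elsewhere. Without 1 mouse they ran from 0 (mouse 3) to 31 (mouse 4) in wt liver, with 8 without mouse 1 or mouse 2, 9 to 27 for the liver mean, 0 to 40 (without the spleen of mouse 1) and 0 to 3 for wt and Dll1 liver minus spleen, 0 to 1 in Dll1 liver and 0 to 0 elsewhere. With the replicate block, pairing the organs of a mouse, liver minus spleen counted 0 in wt and 0 in Dll1 clones, and no call of a member changed. Single arrays with a dye term called the liver means of Hes5 (adjusted p = 0.0446) and Hes7 (adjusted p = 0.0175) by limma. That fit takes the dye-swapped arrays of a mouse, which are technical repeats, as single values with the mouse as a block. It passed 222 features for the liver mean, beside 19 with values by mouse. Hes5 and Hes7 lie on rows 33 and 34, inside the stretch of low wt liver values.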
